A study of Mus musculus with 2 samples.

Results

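The VEGF family was followed in 1 pooled library of mouse heart cells other than cardiomyocytes, as 5 ligand genes (Vegfa, Vegfb, Vegfc, Vegfd and Pgf) and 5 receptor or co-receptor genes (Flt1, Kdr, Flt4, Nrp1 and Nrp2). These 10 genes were taken by name from the 56954 features of the deposited count matrix, and all 10 were found under a symbol that no other feature carries. Per the labels, the library pools 3 control and 4 Nts KO mice (Nts encodes neurotensin, a secreted peptide) 7 days after TAC (transverse aortic constriction), an operation in which a tied aortic arch makes the heart pump against raised pressure. Each mouse's cells carried their own hashtag antibody, and live single cells, positive for calcein-AM and negative for DAPI, were sorted together into 1 tube. The labels' genotype entry reads WT with an age of 6 to 8 weeks for the whole pool, beside a title that names KO mice, and the labels used here do not say how or in which cells Nts was deleted. The cells were not tied to mice here, so control and KO hearts were not compared, and no unoperated heart is in the data. All comparisons are therefore between classes of cells within this 1 library, without replicates and without significance tests. Intervals are exact 95% intervals and cover counting error only.

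VEGF ligands are secreted dimers that bind receptor tyrosine kinases on endothelial cells. VEGF-A, the product of Vegfa, binds the receptors encoded by Flt1 (VEGFR1) and Kdr (VEGFR2), and signalling through Kdr drives endothelial growth, sprouting and permeability. VEGF-B and placental growth factor (Pgf) bind Flt1. VEGF-C and VEGF-D bind the receptor encoded by Flt4 (VEGFR3), the main growth receptor of lymphatic vessels. After proteolytic processing, VEGF-C also binds Kdr. The neuropilins Nrp1 and Nrp2 are co-receptors without a kinase of their own that also bind class 3 semaphorins. In the heart, cardiomyocytes are a known source of Vegfa and Vegfb, and only 3 of the cells analysed here were gated as cardiomyocytes.

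All 10 genes have a position in GENCODE M21 on GRCm38, the assembly also named mm10. The ligands lie at chr17:46016993-46032369, minus strand (Vegfa), chr19:6982473-6987651, minus strand (Vegfb), chr8:54077606-54187096, plus strand (Vegfc), chrX:164373378-164402650, plus strand (Vegfd) and chr12:85166635-85177790, minus strand (Pgf). The receptors lie at chr5:147561604-147726011, minus strand (Flt1), chr5:75932827-75978458, minus strand (Kdr), chr11:49609263-49652739, plus strand (Flt4), chr8:128358604-128503363, plus strand (Nrp1) and chr1:62703285-62818695, plus strand (Nrp2). Nrp1 overlaps Mir1903 on its own strand, and Nrp2 overlaps Gm37121 on its own strand and Gm29083 on the other, so reads of those loci may not be separable from the neuropilins. The other 8 genes overlap no gene annotated in GENCODE M21, which may differ from the annotation used for the deposited counts.

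The promoters of Flt1 and Kdr are shown because these genes parted in lymphatic endothelium, where Flt1 was below its capillary level and Kdr did not differ from its own beyond counting error. Each line holds the 250 bases before the gene's start in RefSeq's GRCm38.p6 annotation, written 5′ to 3′ along the gene, for Flt1 at chr5:147726012-147726261 and for Kdr at chr5:75978456-75978705, both on the minus strand. Capitals mark GGAA, the core bound by ETS factors, a family with known roles in endothelial genes, or its reverse complement TTCC.
Flt1: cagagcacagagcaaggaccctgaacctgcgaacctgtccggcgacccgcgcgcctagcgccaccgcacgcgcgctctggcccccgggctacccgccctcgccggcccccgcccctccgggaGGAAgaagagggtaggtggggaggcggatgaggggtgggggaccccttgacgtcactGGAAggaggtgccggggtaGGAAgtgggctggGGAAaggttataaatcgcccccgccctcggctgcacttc
Kdr: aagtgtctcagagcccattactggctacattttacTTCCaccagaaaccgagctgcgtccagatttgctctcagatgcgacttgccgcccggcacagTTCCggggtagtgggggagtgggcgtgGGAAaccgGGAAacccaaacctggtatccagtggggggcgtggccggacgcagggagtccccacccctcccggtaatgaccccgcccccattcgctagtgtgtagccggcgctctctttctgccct
Both windows held 4 matches. On the Flt1 window all 4 were on the gene's strand, and on the Kdr window 2 were on the gene's strand and 2 on the other. The motif was searched on both strands of 32851 RefSeq promoters, and 93.4% held at least 1 match, so its presence does not set these promoters apart. TATAAA, the TATA box, was found once in the Flt1 window, 31 bases before the start, and not in the Kdr window, and 12.4% of all promoters held it. These matches describe letters only and say nothing of factor binding.

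The matrix held 69993559 UMIs, or unique molecular identifiers, which count captured transcripts once each, in 9369 barcodes, with 2567 to 42567 UMIs per barcode. After 357 called doublets (3.81%) were removed, 9012 cells remained, and 91.6% of them passed a lineage gate that asked for at least 1 UMI in at least 4 of 8 lineage markers. No VEGF gene served as a marker. The gates held 4816 fibroblasts, 2445 myeloid cells of which 1859 were macrophages, 467 endothelial cells, 314 T cells, 99 B cells, 50 mural cells, 42 NK cells, 18 mesothelial cells, 4 Schwann cells and 3 cardiomyocytes, and 754 cells stayed ungated. Endothelial cells were split into 197 capillary, 142 endocardial and 66 lymphatic cells by subset markers, with 62 in no subset ("other endothelial"). Each subset carried its own list: the 5 lymphatic markers summed to 30826 CPM (a gene's UMIs per 1000000 UMIs of the class) in the lymphatic gate, against 7.05 in the capillary and 290.1 in the endocardial gate. The 5 endocardial markers summed to 2941 CPM in the endocardial gate and 35.2 in the capillary gate, where Smoc1 was at 0, and the 8 capillary markers to 4101 CPM in the capillary gate, 507 in the lymphatic and 173 in the endocardial gate. The 8 fibroblast markers summed to 131 CPM in capillary, 684 in endocardial and 475 in lymphatic cells, beside 8689 in fibroblasts, and the part of such foreign RNA in the values below was not tested.

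Transcripts of the 3 receptor kinases lay mostly in endothelium and ligand transcripts mostly in fibroblasts. Endothelial cells were 5.18% of the cells and held 85.9% of the Flt4 UMIs, 79.5% of the Flt1 UMIs and 74.2% of the Kdr UMIs. Fibroblasts were 53.4% of the cells and held 90.0% of the Vegfd UMIs, 88.2% of the Pgf UMIs, 76.3% of the Vegfa UMIs, 75.1% of the Vegfc UMIs and 62.9% of the Vegfb UMIs. The neuropilins were spread more widely. Nrp2 had 40.0% of its UMIs in endothelium, 25.4% in myeloid cells and 21.5% in fibroblasts, and Nrp1 had 59.9% in fibroblasts and 15.2% in endothelium. Of the 65360456 UMIs of all genes, fibroblasts held 38843940, myeloid cells 15012128 and endothelial cells 2532195. The fibroblast shares of Vegfb and Nrp1 were near the fibroblast share of all UMIs. Such shares depend on how many cells of each kind were freed and sorted. The levels below are in CPM and are compared only within a gene, since 3′ counting does not give levels per length.

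**Figure D1:**
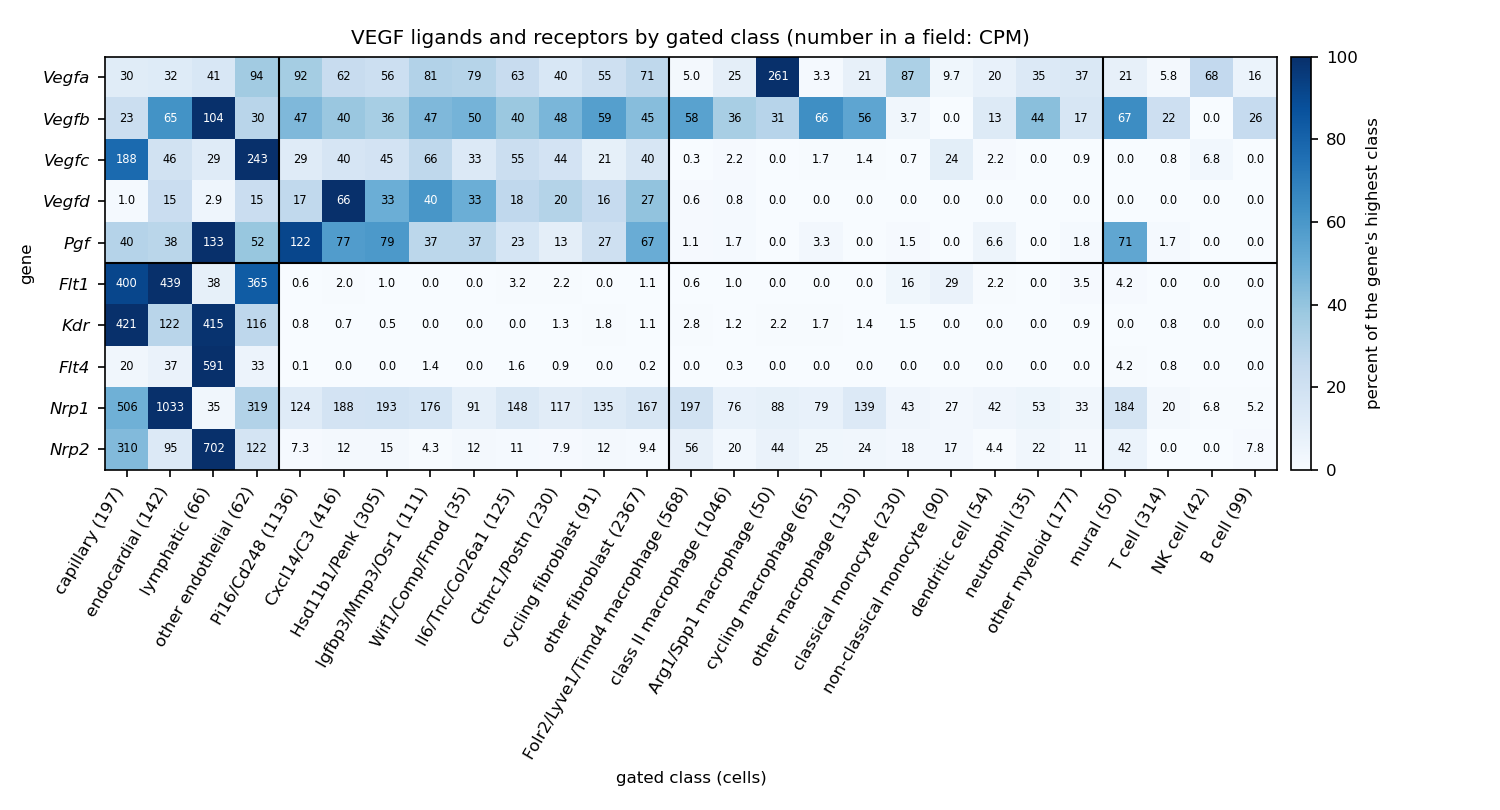
Level of each VEGF gene (rows, ligands above the line and receptors below it) in the 27 gated classes of at least 20 cells (columns, with the number of cells). The number in a field is the level in CPM and the shade is that level as a percent of the gene's highest class. The Flt1, Kdr and Flt4 rows are dark in endothelium only, while the Nrp1 row is at 76.1 CPM or more in every fibroblast, macrophage and mural column.

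All 5 receptor genes were higher in endothelium than in fibroblasts by at least 2-fold, where 15.5% of the genes measured in that comparison (at least 20 UMIs over both classes) were so. The fold was 317 (234 to 440) for Flt1, 292 (210 to 419) for Kdr and 455 (236 to 1006) for Flt4. It was smaller for the co-receptors, 28.6 (25.1 to 32.5) for Nrp2 and 3.88 (3.67 to 4.11) for Nrp1. The median log2 ratio of the 5 receptors was 8.19, beside 0.22 over all genes with at least 20 UMIs on both sides.

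Flt4 was higher in lymphatic than in blood endothelium. Its level was 591 CPM (513 to 678, from 204 UMIs) in lymphatic, 37.0 (25.3 to 52.2) in endocardial, 33.4 (16.7 to 59.8) in other endothelial and 20.1 (12.3 to 31.1, from 20 UMIs) in capillary cells. Only lymphatic cells stood apart in this order, and endocardial, other endothelial and capillary cells did not differ from their neighbours beyond counting error. Lymphatic cells were 29.4-fold above capillary cells (18.5 to 49.1) and 16.0-fold above endocardial cells (10.98 to 24.0), and the ratio to capillary cells ran from 23.2 to 43.4 over 7 other ways of processing. Nrp2, the co-receptor paired with Flt4 in lymphatic vessels, had the same first place. It was at 702 CPM (616 to 796) in lymphatic, 310.2 (276 to 347) in capillary, 122 (86.9 to 166) in other endothelial and 94.8 (75.4 to 118) in endocardial cells. The lymphatic level was 2.26-fold the capillary level (1.90 to 2.69) and 7.40-fold the endocardial level (5.74 to 9.63).

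Kdr, the main signalling receptor for VEGF-A, did not separate lymphatic from capillary cells. Its level was 421 CPM (382 to 463) in capillary and 415 (349 to 488) in lymphatic cells, a ratio of 0.985 with an interval from 0.809 to 1.19. Endocardial cells at 122 CPM (100.3 to 148) and other endothelial cells at 116 (81.8 to 159) formed a lower pair, with endocardial cells 3.44-fold below capillary cells (2.77 to 4.29). With Leiden clusters in place of gates, where the capillary cluster also held all 142 endocardial cells, the lymphatic to capillary ratio was 1.64, and the other 6 alternatives gave 0.779 to 0.985.

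Flt1, which binds VEGF-A, VEGF-B and placental growth factor, had the opposite pattern to Flt4. It was at 439 CPM (396 to 486) in endocardial, 399.8 (361 to 441) in capillary and 365 (303 to 436) in other endothelial cells, and no pair of neighbours among these differed beyond counting error. In lymphatic cells it was at 37.7 CPM (20.1 to 64.4), 10.6-fold below capillary cells (6.13 to 20.1). The lymphatic value rests on 13 UMIs in 3 of 66 cells, 10 of them in 1 cell. It was as low or lower under all 7 alternatives, from 10.6 to 147-fold below capillary cells, the latter in clusters, where 2 gated lymphatic cells fall into the capillary cluster.

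Nrp1, the co-receptor of Kdr, was highest in endocardium and lowest, within endothelium, in lymphatic cells. It was at 1033 CPM (966 to 1103) in endocardial, 506 (462 to 552) in capillary and 319 (261 to 387) in other endothelial cells, each step larger than counting error. In lymphatic cells it was at 34.8 CPM (18.0 to 60.8, from 12 UMIs in 4 cells), 14.5-fold below capillary cells (8.25 to 28.3). Nrp2 was thus highest in lymphatic and Nrp1 in endocardial cells, with capillary cells next for both. The endocardial to capillary ratio of Nrp1, 2.04 (1.83 to 2.28), lay at the 2-fold line. It ran from 1.59 to 2.19 over 6 alternatives and passed the line in 3 of them, and 1 endocardial cell held 48 of the 894 UMIs.

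Counted together, 4 of the 5 receptors differed by at least 2-fold between lymphatic and capillary cells, Flt4 and Nrp2 higher and Flt1 and Nrp1 lower. Over all 7435 genes measured in that comparison the share was 22.8%, of which 9.75% were higher and 13.1% lower in lymphatic cells. The median log2 ratio of all genes was shifted by 0.15 towards lymphatic cells, a small amount beside these folds. Between endocardial and capillary cells 3 of the 5 receptors passed 2-fold, Nrp1 higher and Kdr and Nrp2 lower, with 20.8% of all genes past it. Flt1 was close to even there, at 1.10 (0.952 to 1.27), and Flt4 was at 1.84 (1.02 to 3.39), a value from 1.20 to 3.50 over the alternatives. Between lymphatic and endocardial cells all 5 receptors passed 2-fold, where 22.3% of all genes did, with Kdr 3.38-fold higher (2.61 to 4.39) and Nrp1 29.7-fold lower (16.9 to 57.7), on 12 UMIs, in lymphatic cells.

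**Figure D2:**
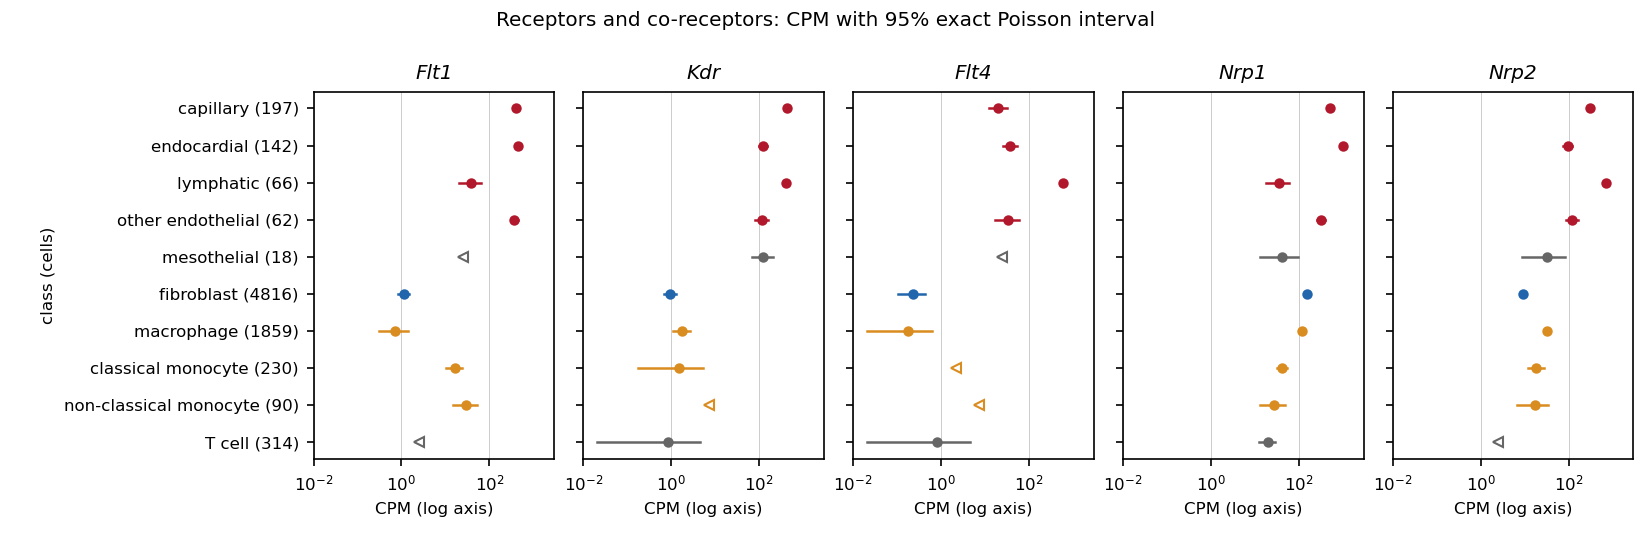
Level of the 5 receptor genes in the gated classes (CPM, log axis), with exact 95% Poisson intervals cut at 0.01 CPM. Red marks endothelial, blue fibroblast, orange myeloid and grey other classes, and a hollow left triangle marks a class at 0 UMIs, drawn at the level of 3 UMIs. Flt4 peaks in lymphatic cells at 591 CPM, Flt1 falls to 37.7 CPM there, and Nrp1 spans fibroblasts and macrophages as well as endothelium.

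The same pattern held in the share of cells with a UMI after each cell was thinned to 2000 UMIs, a number every cell reached. In capillary cells 57.9% had Kdr, 49.2% Flt1 and 4.06% Flt4. In endocardial cells 22.5% had Kdr, 50.7% Flt1 and 11.97% Flt4. In lymphatic cells 53.0% had Kdr, 3.03% Flt1 and 60.6% Flt4. T cells, which should lack the 3 receptor kinases, gave 0 of 314 cells for each of Flt1, Kdr and Flt4 at this depth. Nrp1 was seen in 3.03% of lymphatic and 2.55% of T cells, and since some T cells are known to carry Nrp1, they give no background for it. The median depth before thinning was 4422 UMIs in capillary, 5259 in endocardial, 5064.5 in lymphatic and 3255 in T cells.

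Receptors were also read together within cells, with all UMIs kept. Of 66 lymphatic cells, 54 (81.8%) had both Flt4 and Nrp2, 50 (75.8%) both Kdr and Flt4, and 3 both Kdr and Flt1. Of 197 capillary cells, 114 (57.9%) had both Kdr and Flt1, 135 (68.5%) both Kdr and Nrp1, and 15 both Kdr and Flt4. Lymphatic cells thus carried Kdr with Flt4 and capillary cells carried it with Flt1 and Nrp1. These pairs were about as many as each gene's own share of cells gives without a link between the genes. That number was 50.1 for Kdr with Flt4 and 51.0 for Flt4 with Nrp2 in lymphatic cells. In capillary cells it was 114.6 for Kdr with Flt1 and 134.8 for Kdr with Nrp1. Of 142 endocardial cells, 104 (73.2%) had both Flt1 and Nrp1, and 57 (40.1%) both Kdr and Flt1. Without a link 105.5 and 55.7 cells would be expected. None of the 3 receptor kinases was seen in 5.08% of capillary, 8.45% of endocardial, 14.5% of other endothelial and 1.52% of lymphatic cells, against 98.3% of fibroblasts and 99.4% of T cells.

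**Figure D3:**
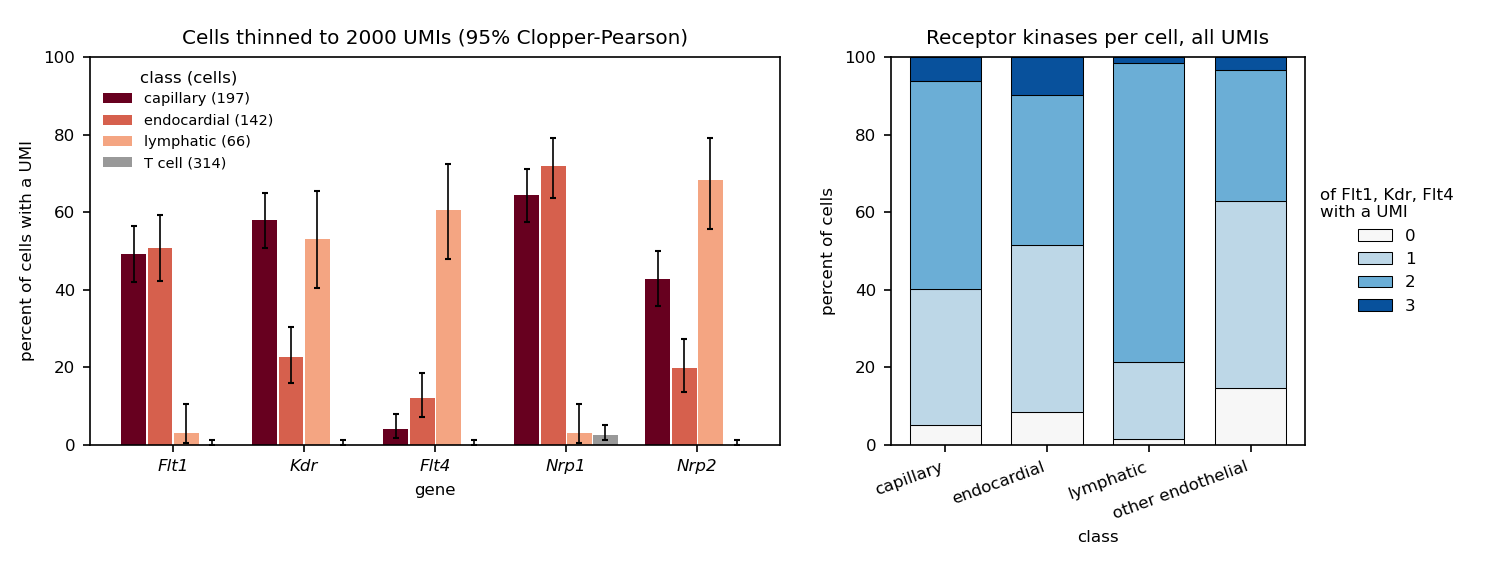
Percent of cells with at least 1 UMI of each receptor after thinning to 2000 UMIs, with exact 95% binomial intervals, by class. Flt4 is found in 60.6% of lymphatic cells and 4.06% of capillary cells, and Flt1 in 3.03% and 49.2%.

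Outside endothelium, receptor kinase transcripts were sparse, with 2 exceptions in small classes. The first was Kdr in mesothelial cells, the lining of the heart's surface, at 122 CPM (68.5 to 202) from 15 UMIs in 7 of 18 cells. The 8 endothelial markers summed to 335 CPM in these cells, and Cdh5, Tie1, Egfl7, Ecscr and Cldn5 were at 0. The second was Flt1, known to be carried by monocytes, in the gated monocytes. It was at 29.1 CPM (15.1 to 50.9, 12 UMIs) in non-classical and 16.1 CPM (10.1 to 24.4, 22 UMIs) in classical monocytes, and at 0.701 CPM (0.302 to 1.38, 8 UMIs) in macrophages. Classical monocytes were 23.0-fold above macrophages (9.88 to 59.8), a comparison in which 7.03% of all genes were at least 2-fold lower in macrophages. The endothelial list summed to 53.4 CPM in non-classical monocytes, with Cdh5, Tie1, Egfl7, Esam, Ecscr and Cldn5 at 0, and to 19.1 CPM in classical monocytes.

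The neuropilins reached further. Nrp1 was at 154 CPM (150.1 to 158) in fibroblasts, from 90.9 in the Wif1/Comp/Fmod to 193 in the Hsd11b1/Penk subset, and at 184 (134 to 247) in mural cells. Among myeloid cells both neuropilins were highest in macrophages with Folr2, Lyve1 and Timd4, markers of resident macrophages. There Nrp1 was at 197 CPM, 2.86-fold above other myeloid cells (2.58 to 3.17), and Nrp2 at 56.5 CPM, 2.90-fold above them (2.39 to 3.52). In that comparison 6.51% of all genes were at least 2-fold higher.

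Among the ligands, Vegfc, Vegfd and Pgf were fibroblast genes relative to myeloid cells, while Vegfa and Vegfb were found in both. Pgf was at 76.1 CPM (73.4 to 78.9) in fibroblasts and 1.53 (0.971 to 2.30) in myeloid cells, 49.7-fold apart (33.0 to 78.5). Vegfd was at 27.0 CPM (25.4 to 28.7) against 0.466 (0.187 to 0.961), 57.9-fold apart (28.0 to 144). Vegfc was at 37.8 CPM (35.9 to 39.8) against 1.93 (1.29 to 2.77), 19.6-fold apart (13.6 to 29.4). These 3 gaps stayed at 14.4-fold or more in all 7 alternatives. Vegfa was 2.26-fold higher in fibroblasts (2.06 to 2.50), at 72.9 against 32.2 CPM, and fell to 1.93-fold when at most 1 marker of another lineage was allowed. Vegfb was at 45.2 against 37.2 CPM, a ratio of 1.21 (1.10 to 1.34). At least 2-fold higher in fibroblasts were thus 4 of 5 ligands, where 31.7% of the 17364 genes measured were, with a shift of 0.18 in the median log2 ratio of all genes.

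Fibroblast subsets, gated on at least 2 of 3 marker genes each, differed most in Pgf. Pi16/Cd248 cells, 1136 in number and of a kind known from the outer layers of vessels, held it at 122 CPM (115 to 129), and Hsd11b1/Penk, Cxcl14/C3 and unassigned fibroblasts at 79.0, 77.0 and 67.3 CPM. The lower end was Cthrc1/Postn cells, the activated matrix-producing state, at 12.7 CPM (8.52 to 18.3), below Il6/Tnc/Col26a1 cells at 22.6 and cycling fibroblasts at 27.3. Each subset was then set against all other fibroblasts. Cthrc1/Postn cells were 6.30-fold lower (4.37 to 9.42, and 3.59 to 9.84 over the alternatives), where 6.52% of all genes were at least 2-fold lower. Il6/Tnc/Col26a1 cells were 3.44-fold lower (2.37 to 5.19, background 5.91%) and cycling cells 2.85-fold lower (1.99 to 4.23, background 9.23%). Pi16/Cd248 cells were 2.02-fold higher (1.87 to 2.17, background 1.72%), a value at the line that passed 2-fold in 3 of 7 alternatives. The Igfbp3/Mmp3/Osr1 subset, 2.07-fold lower (1.41 to 3.17, background 5.02%), was 1.33-fold lower with clusters, and the Wif1/Comp/Fmod subset, 2.05-fold lower (1.08 to 4.496, background 8.21%), rests on 9 UMIs.

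Vegfd, a ligand of Flt4, had its highest level as reported in Cxcl14/C3 fibroblasts. It was at 66.1 CPM (57.2 to 76.1) there, from 195 UMIs in 80 of 416 cells, with 26.2% of the UMIs in the 5 highest cells. The other subsets lay between 16.4 CPM in cycling and 40.0 CPM in Igfbp3/Mmp3/Osr1 cells. Cxcl14/C3 cells were 2.78-fold above other fibroblasts (2.37 to 3.25), and 2.51 to 2.89-fold above them over the alternatives, where 3.67% of all genes were at least 2-fold higher. Igfbp3/Mmp3/Osr1 cells were 1.50-fold above other fibroblasts as reported, and 1.46 to 5.08-fold over the alternatives. The lead of Cxcl14/C3 cells over that subset thus depends on the processing. Vegfd counts were concentrated in few cells elsewhere too: 21 of the 46 UMIs of Cthrc1/Postn cells lay in 1 cell.

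As reported, Vegfa, Vegfb and Vegfc passed 2-fold in no fibroblast subset against other fibroblasts, where 7.65% (Pi16/Cd248) to 19.2% (Wif1/Comp/Fmod) of all genes did in either direction. Vegfa ran from 39.9 CPM (32.1 to 49.0) in Cthrc1/Postn cells, 1.88-fold below other fibroblasts (1.52 to 2.34), to 92.0 (86.1 to 98.2) in Pi16/Cd248 cells. Vegfb stayed between 35.9 CPM in Hsd11b1/Penk and 59.0 in cycling fibroblasts. Vegfc lay between 20.9 CPM in cycling and 65.8 in Igfbp3/Mmp3/Osr1 cells. This did not hold under every alternative. The Vegfa ratio to other fibroblasts reached 0.301 in Cthrc1/Postn and 0.467 in cycling cells after thinning to 2000 UMIs, and 0.454 in Hsd11b1/Penk cells when markers needed 2 UMIs. The Vegfc ratio was 0.391 to 0.485 in cycling cells under 3 alternatives, and 2.10 in Igfbp3/Mmp3/Osr1 cells when at most 1 marker of another lineage was allowed. Pgf and Vegfa met in 584 of 4816 fibroblasts (12.1%), and Vegfc and Vegfd in 153 (3.18%). Without a link between the genes 497 and 131 cells would be expected. Pgf and Vegfd met in 134 fibroblasts, below the 162 expected, and Vegfa and Vegfc in 405, near the 401 expected. All UMIs were kept for these counts, and the expected numbers take no account of depth differing between cells. A link between the genes was not tested.

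In myeloid cells, the level of Vegfa was highest in Arg1/Spp1 macrophages, a small class of 50 cells. They held 119 of the 483 myeloid UMIs of Vegfa, beside 148 in class II macrophages and 118 in classical monocytes. The level of Vegfa in Arg1/Spp1 macrophages was 261 CPM (216 to 313), the highest of the 27 classes and 2.77-fold above the next (1.85 to 4.26). Vegfa was at 86.5 CPM (71.6 to 104) in classical monocytes, 37.0 in unassigned myeloid cells, 35.5 in neutrophils, 24.5 in class II macrophages, 19.7 in dendritic cells and 9.71 in non-classical monocytes. In Folr2/Lyve1/Timd4 macrophages it was at 4.98 CPM (2.95 to 7.87), close to the 5.80 CPM of T cells. Arg1/Spp1 macrophages were 10.5-fold above other myeloid cells (8.42 to 12.9, and 9.40 to 15.6 over 6 alternatives), where 5.68% of all genes were at least 2-fold higher. Classical monocytes were 3.24-fold above them (2.61 to 3.99, background 5.93%).

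Few cells carried these counts. In Arg1/Spp1 macrophages 28 of 50 cells had Vegfa, and the 5 highest held 50.4% of its 119 UMIs. In classical monocytes 38 of 230 cells had it, and the 5 highest held 44.1% of 118 UMIs. Folr2/Lyve1/Timd4 macrophages were 8.19-fold below other myeloid cells (5.12 to 13.9, background 8.09%), but only 1.09-fold below them with clusters, where the cluster of that name also took 33 of the 50 Arg1/Spp1 cells.

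Vegfb had a different order from Vegfa in myeloid cells. It was at 45.4 CPM (41.6 to 49.5) in macrophages and 3.67 CPM (1.19 to 8.56, 5 UMIs) in classical monocytes, 12.4-fold apart (5.28 to 38.3), where 19.8% of all genes were at least 2-fold higher in macrophages. It was at 57.8 CPM in Folr2/Lyve1/Timd4 macrophages, the class lowest but one in Vegfa. Non-classical monocytes had 0 UMIs, at least 5.26-fold below other myeloid cells with 3 UMIs as the floor of the class (background 13.9%). Over 6 alternatives this value ran from 2.39 to 6.20-fold below them. Vegfc was sparse in myeloid cells, with 10 of its 29 UMIs in non-classical monocytes. They lay in 9 of 90 cells, at 24.3 CPM (11.6 to 44.6), 18.7-fold above other myeloid cells (7.75 to 42.2, background 11.1%). In all, 4 ligands were measured in each of 8 myeloid subsets, and 13 of these ratios passed 2-fold. Of all genes, 8.01% (class II macrophages) to 25.0% (non-classical monocytes) did so. Most of the 13 ratios rest on 0 to 4 UMIs in the subset. Among them are Pgf in dendritic cells (3 UMIs, background 8.83%) and in cycling macrophages (2 UMIs, background 10.8%).

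Endothelial cells also carried ligand transcripts. Vegfc was at 188 CPM (162 to 217) in capillary cells and 243 (193 to 303) in other endothelial cells, the highest levels of any class, which did not differ from each other beyond counting error. It was at 46.2 (33.0 to 62.9) in endocardial and 29.0 (13.9 to 53.3) in lymphatic cells, where 9 of 10 UMIs lay in 1 cell. Capillary cells were 2.86-fold above the next class, Igfbp3/Mmp3/Osr1 fibroblasts (2.06 to 4.05). Vegfc and Kdr met in 52 of 197 capillary cells (26.4%), and Vegfc and Flt4 in 7. Both counts were near those that each gene's own share of cells gives without a link between the genes. For Vegfc with Kdr that number was 55.7, slightly above the count seen. A link between ligand and receptor within cells was not tested.

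Lymphatic cells carried 2 ligands of Flt1, a receptor of which they themselves had little. Pgf was at 133 CPM (97.6 to 178) in lymphatic, 40.3 (28.8 to 54.9) in capillary and 38.1 (26.2 to 53.6) in endocardial cells, where 17 of 33 UMIs lay in 1 cell. The lymphatic level was 3.31-fold the capillary level (2.12 to 5.19), from 46 UMIs in 16 cells, and did not differ from that of Pi16/Cd248 fibroblasts beyond counting error. Vegfb was at 104 CPM (73.1 to 144) in lymphatic, 64.7 (48.9 to 84.0) in endocardial and 23.2 (14.7 to 34.8) in capillary cells, a lymphatic to capillary ratio of 4.51 (2.60 to 7.96). Vegfb was also at 902 CPM (466 to 1576) in the 3 cells gated as cardiomyocytes, from 12 UMIs. All 3 fell into the cluster named for cycling fibroblasts.

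**Figure D4:**
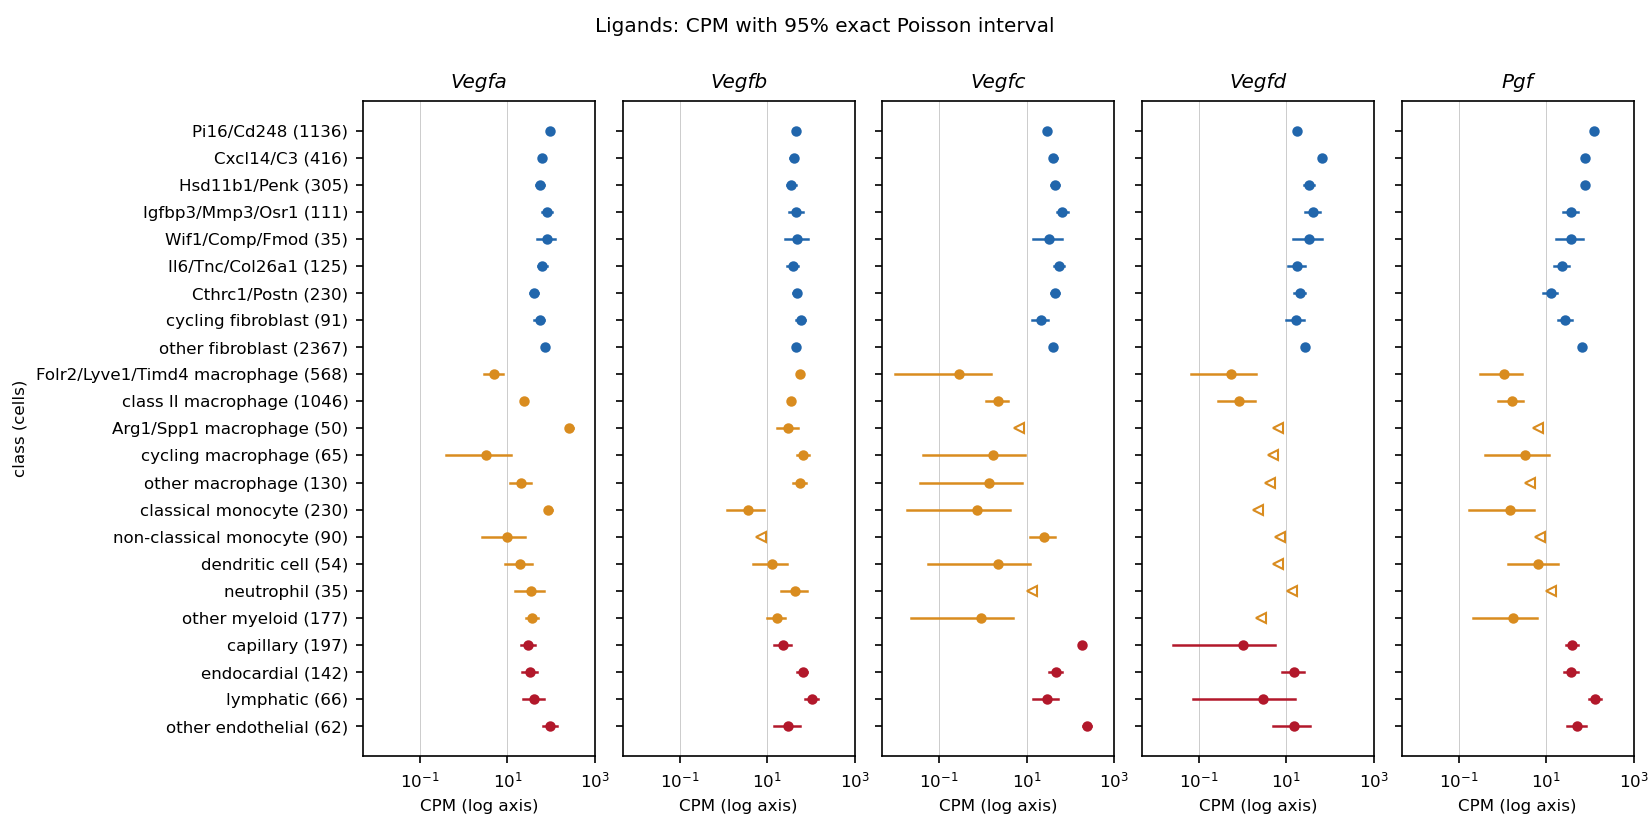
Level of the 5 ligand genes in the gated classes (CPM, log axis), with exact 95% Poisson intervals cut at 0.01 CPM, in the colours blue for fibroblast, orange for myeloid and red for endothelial classes. A hollow left triangle marks a class at 0 UMIs, drawn at the level of 3 UMIs. Pgf and Vegfd are far lower in myeloid classes than in fibroblasts, and Vegfa is highest in Arg1/Spp1 macrophages at 261 CPM.

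A list of 53 other genes of VEGF biology was read in the same comparisons, as counts past 2-fold among those with at least 20 UMIs. Between lymphatic and capillary cells 38 were measured, 10 higher and 13 lower, beside 22.8% of all genes past 2-fold, with a median log2 ratio of -0.34. Of 7 semaphorins and plexins, partners of the neuropilins, 4 were higher and 2 lower, and of 15 endothelial response genes 1 was higher and 6 lower. Sema3d, a class 3 semaphorin, was at 223 CPM in lymphatic and 16.1 in capillary cells, 13.9-fold apart (8.01 to 25.4), and Sema3a, which binds Nrp1, was at 110.2 and 7.05 CPM, 15.6-fold apart (6.89 to 41.5). The apelin receptor Aplnr and the endothelial transcription factor Sox17 had 0 UMIs in lymphatic cells and were at 298 and 295 CPM in capillary cells, at least 34.3-fold and 33.9-fold lower against a floor of 3 UMIs.

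Between endocardial and capillary cells 39 were measured, 7 higher and 15 lower. Of all genes, 11.1% were at least 2-fold higher there and 9.75% lower. Ccn2, a matrix protein that binds VEGF-A, was at 969.5 CPM in endocardial and 46.3 in capillary cells, 20.9-fold apart (15.5 to 28.8). Aplnr was 86.0-fold lower in endocardial cells, on 3 UMIs. Between fibroblasts and myeloid cells 47 were measured, 29 higher and 6 lower in fibroblasts, where 48.8% of all genes passed 2-fold. All 3 genes for the processing of VEGF-C or lymphatic growth were higher, among them Ccbe1, which assists the cleavage of VEGF-C, at 17.0 CPM against 0 UMIs in myeloid cells, at least 84.9-fold. Svep1, a matrix protein needed for lymphatic vessels, was 77.1-fold higher (50.3 to 125), and all 5 genes of the angiopoietin and Tie group were higher.

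In Cxcl14/C3 fibroblasts, the subset with the highest Vegfd as reported, 45 list genes were measured, 4 higher and 4 lower (all genes, 9.22%). Apln, the ligand of Aplnr, was 6.09-fold higher on 7 UMIs. Adm, adrenomedullin, was at 268 CPM against 114 in other fibroblasts, a ratio of 2.36 (2.18 to 2.55), and Ccbe1 at 33.9 against 15.6, a ratio of 2.18 (1.74 to 2.70). In Cthrc1/Postn cells, with the lowest Pgf, Ccbe1 was 3.10-fold lower on 13 UMIs, and 8 list genes were higher and 4 lower (all genes, 10.9%). Of those higher, 6 were endothelial response genes, led by Erg, 6.87-fold higher on 6 UMIs. The part of foreign RNA in these was not tested. In Pi16/Cd248 cells 3 list genes were higher and 9 lower (all genes, 7.65%), and Sema3c, a class 3 semaphorin, was 5.07-fold higher (4.67 to 5.52). In Arg1/Spp1 macrophages, with the highest Vegfa, 5 of 28 list genes were higher and 2 lower (all genes, 15.7%), led by Gpc1 on 5 UMIs and by Thbs1, encoding the angiogenesis inhibitor thrombospondin 1, at 1293 against 259 CPM, a ratio of 5.002 (4.58 to 5.46). Thbs1 was also higher in classical monocytes, by 7.31-fold (6.88 to 7.77), and in neutrophils, by 5.03-fold (4.46 to 5.64) at 1374 CPM. It was 11.7-fold lower in Folr2/Lyve1/Timd4 macrophages, and also past 2-fold lower in class II macrophages, cycling macrophages and dendritic cells.

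The genes most like the members were sought by Pearson's r of log2(CPM + 1) over the 27 classes of at least 20 cells, among 12066 genes with at least 200 UMIs. Members and the marker genes of the gates were left out of that search, so no lineage or subset marker could be named. The classes share 1 library and differ in depth, so r describes these classes only. Kdr was most like Stap2 (0.97) and Clic5 (0.97), Flt1 like Cyyr1 (0.90) and Fam110d (0.89), and Flt4 like Klhl4 (0.93) and Pgm5 (0.92). Nrp1 was most like an unnamed gene, ENSMUSG00000121092 (0.97), and Mcfd2 (0.91). Among ligands, Vegfd was most like Angptl1 (0.96) and Ackr4 (0.96), Pgf like Il17rc (0.95) and Nlgn2 (0.95), Vegfc like Fam171a2 (0.91) and Cd34 (0.90), and Vegfb like Dmac2l (0.91) and 2810403D21Rik (0.90). Vegfa had no close match, with Abhd11 at 0.73 and Jam2 at 0.69. Between members r was 0.88 for Flt4 and Kdr, 0.81 for Flt1 and Kdr, 0.78 for Vegfc and Vegfd, and 0.01 for Vegfa and Vegfb.

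**Figure D5:**
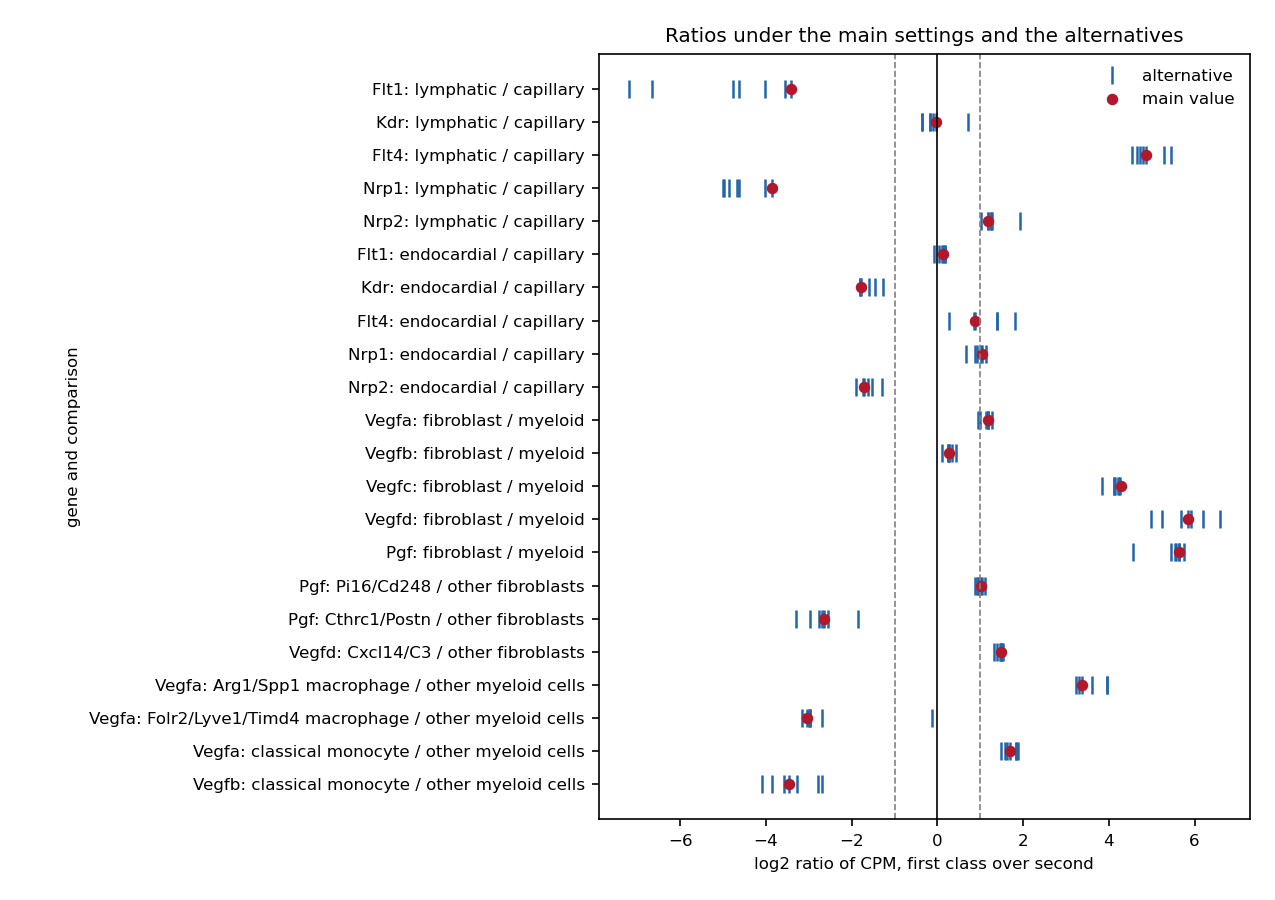
Log2 ratio of the receptors and ligands in the main comparisons as reported and under the alternative ways of processing. The receptor ratios between lymphatic and capillary cells past 2-fold stay past it in all 7 alternatives, while Nrp1 between endocardial and capillary cells falls on either side of 2-fold.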

How the data were processed

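One pooled 10x 3′ gene expression library was used, and the hashtag library was not analysed here. The deposited matrix holds raw UMI counts per gene and barcode. STARsolo, Scanpy and mm10 are named, without versions or settings, per the submitters' processing notes, and the rule that called barcodes as cells is not given in the sources used here. Doublets were called and removed with Scanpy 1.11.5. Cells were gated on raw UMIs: at least 4 of 8 lineage markers, at most 3 of another lineage and a lead of at least 2 times, then subset markers. Counts were summed per class and divided by the class's UMIs (CPM). Poisson, ratio and Clopper-Pearson intervals are exact at 95% (scipy 1.17.1). A ratio was counted past 2-fold with at least 20 UMIs over both classes, and the background share leaves marker genes out. With 1 library no test between conditions was possible. The procedure was tested on simulated counts. All 10 members are reported. Of the 53 pathway genes, those named come from the up to 3 largest ratios on each side of a comparison, and the 2 most alike genes are given per member, except for Nrp2, for which they are not reported here. Gates, members and lists were chosen with earlier results of these data known. The alternatives were doublets kept, markers at 2 UMIs, at most 1 foreign marker, equal weight per cell, thinning to 2000 UMIs, median-of-ratios scaling and Leiden clusters, and gene filters of 1 or 100 UMIs for the background.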

Additional observations from a re-analysis of the deposited data

How the results depend on the processing

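No paired analysis was possible because there is 1 library and its cells were not tied to mice. Over 7 alternatives, 31 of 87 ratios were past 2-fold as reported. Of these, 30 reversed in none, 21 stayed past 2-fold in every alternative that gave a value, and 18 moved by over 1.5 times in at least 1. The count of ligand ratios past 2-fold among myeloid subsets was 13 as reported and 7 with clusters in place of gates. These counts are over different subsets, since Arg1/Spp1 macrophages, cycling macrophages and non-classical monocytes, which held 6 of the 13, had no cluster of their own. Vegfc in classical monocytes against other myeloid cells, 2.80-fold lower on 1 UMI, reversed with clusters to a log2 ratio of 1.75, where the classical monocyte cluster also held 83 of the 90 non-classical monocytes. Receptors past 2-fold numbered 4 between lymphatic and capillary cells and 3 between endocardial and capillary cells in every alternative run. The latter were Kdr and Nrp2 throughout, with Nrp1 in 3 alternatives and Flt4 in the other 3. Clusters gave no value between endocardial and capillary cells, as endocardial cells had no cluster of their own. Ligands past 2-fold numbered 3 to 4 between fibroblasts and myeloid cells and 5 to 10 among fibroblast subsets. Depth limits the small classes and the sparse genes, and single cells held much of some counts.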

Other observations

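The 754 cells that passed no lineage gate held 17.8% of the Kdr UMIs, 12.5% of the Flt1 UMIs and 9.97% of the Flt4 UMIs. In 1 of them Kdr had 21 UMIs, more than in any gated cell, where the highest was 12. The levels over these cells were 24.7 CPM for Kdr, 20.9 CPM for Flt1 and 4.53 CPM for Flt4. NK cells had Vegfa at 67.7 CPM (32.5 to 124.5), from 10 UMIs in 9 of 42 cells.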
